A study of Mus musculus with 32 samples.

Results

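Collagen genes encode the alpha chains of the collagens, the triple-helical proteins that make up most of the extracellular matrix. Members were chosen by name alone, as every gene symbol that consists of Col, a type number, the letter a and a chain number. This gave 30 of the 12791 genes with a symbol in the table for 10 mM glucose and 25 of the 12053 in the table for 1 mM glucose. All 25 were among the 30, and Col4a3, Col4a4, Col4a6, Col10a1 and Col26a1 had values in the 10 mM table alone. They were sorted into 9 fibrillar, 6 basement membrane, 3 type VI, 5 FACIT (fibril-associated collagens with interrupted triple helices) and 7 other chains. The basement membrane class holds type IV chains alone. In the 1 mM table the basement membrane class held 3 chains, the class of other chains 5, and the remaining classes the same numbers. The reference names list 14 more mouse collagen symbols of this form, which were not analysed here.

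The cells were Acly knockout mouse embryonic fibroblasts, so that every group lacked the endogenous enzyme ATP-citrate lyase (ACLY), which makes acetyl-CoA from citrate. The control (KO) carried mCherry alone. The other groups carried mCherry-tagged human ACLY without a targeting change (WT), fused to a nuclear export sequence (Cyto), or fused to additional nuclear import sequences (Nuc). Cells grew in DMEM with 10% CS and penicillin/streptomycin and were collected 24 h after a change to medium with 10 mM or 1 mM glucose. RNA was read by sequencing in 15 libraries at 10 mM and 16 at 1 mM, 4 for each group except Cyto at 10 mM, which had 3 (replicates 1, 2 and 4) because the submitters set 1 library aside as an anomaly. The 10 mM libraries are labelled batch 2 and the 1 mM libraries batch 1, so glucose and batch cannot be told apart, and levels were compared only within a medium. The labels do not say whether replicates were separate cultures, which promoter drove the constructs or whether each line was 1 clone, so p-values measure the spread between these libraries. Values are log2 values normalized by the submitters within each table, and the read depth behind them is unknown. In bulk RNA, fewer cells that express a gene and less RNA per cell cannot be told apart.

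Fibrillar collagens assemble into the rope-like fibrils of connective tissue: type I, the main one, is a trimer of Col1a1 and Col1a2 chains, type III is a homotrimer of Col3a1, and types V and XI are minor partners that help to start fibrils and set their diameter. Type IV chains form the sheet-like network of basement membranes, type VI chains form beaded microfilaments, and FACIT collagens decorate the surface of fibrils. Each chain is hydroxylated, glycosylated and folded in the endoplasmic reticulum, exported, trimmed by proteases and crosslinked by lysyl oxidases. Fibroblasts are a main source of fibrillar collagen, and transforming growth factor beta is a known inducer of it.

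The 250 bases before the gene start are shown for 5 members that mark the patterns described below: Col3a1, Col5a1 and Col11a1, fibrillar chains that rose with WT and Nuc at 10 mM glucose, and Col6a3 and Col8a1, which departed from that pattern. The sequences are RefSeq windows of build GRCm38.p6, 5′ to 3′ on the gene's strand, and no exon of the GENCODE vM21 annotation overlaps them. The expression tables hold no coordinates. The windows are chr1:45311288-45311537 on the plus strand, chr2:27886175-27886424 on the plus strand, chr3:114030290-114030539 on the plus strand, chr1:90843972-90844221 on the minus strand and chr16:57754738-57754987 on the minus strand. Capitals mark every match to 3 motifs, searched on both strands. The CCAAT box reads ATTGG when it lies on the opposite strand. The GC box, GGGCGG, reads CCGCCC there, and the TATA box, TATAAA, reads TTTATA there. No match overlaps another in these windows.
Col3a1: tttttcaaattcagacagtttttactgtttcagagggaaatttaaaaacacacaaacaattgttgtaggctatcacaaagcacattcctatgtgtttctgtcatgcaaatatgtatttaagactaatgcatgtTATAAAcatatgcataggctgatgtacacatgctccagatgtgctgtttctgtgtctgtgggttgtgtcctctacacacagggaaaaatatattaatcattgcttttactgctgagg
Col5a1: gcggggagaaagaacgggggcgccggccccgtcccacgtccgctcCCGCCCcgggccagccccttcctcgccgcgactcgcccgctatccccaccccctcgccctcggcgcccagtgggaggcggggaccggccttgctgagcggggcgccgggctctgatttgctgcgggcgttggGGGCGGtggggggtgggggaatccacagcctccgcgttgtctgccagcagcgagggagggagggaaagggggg
Col11a1: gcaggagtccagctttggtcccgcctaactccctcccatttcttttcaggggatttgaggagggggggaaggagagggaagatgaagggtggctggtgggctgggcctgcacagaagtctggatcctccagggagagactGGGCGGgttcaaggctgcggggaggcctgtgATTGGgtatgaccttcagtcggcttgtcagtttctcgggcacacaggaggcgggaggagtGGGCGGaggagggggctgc
Col6a3: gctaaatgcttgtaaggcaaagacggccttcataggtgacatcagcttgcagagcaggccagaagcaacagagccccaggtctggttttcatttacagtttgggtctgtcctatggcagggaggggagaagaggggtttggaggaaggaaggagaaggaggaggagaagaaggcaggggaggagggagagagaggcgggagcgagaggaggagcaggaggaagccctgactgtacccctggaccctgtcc
Col8a1: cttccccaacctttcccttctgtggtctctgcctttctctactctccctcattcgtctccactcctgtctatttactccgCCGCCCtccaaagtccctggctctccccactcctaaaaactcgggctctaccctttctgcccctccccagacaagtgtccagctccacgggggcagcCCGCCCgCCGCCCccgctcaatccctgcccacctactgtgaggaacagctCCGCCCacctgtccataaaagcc

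The Col3a1 window held 1 TATAAA, no GGGCGG and 35.2% G and C, whereas the Col5a1 and Col11a1 windows held 2 GGGCGG each with 76.4% and 62.4% G and C. The Col8a1 window held 4 GGGCGG, and the Col6a3 window held none of the 3 motifs. Of the 30 members, 23 matched the RefSeq table, with 25 windows in all. GGGCGG was present in 15 of the 25 (60.0%) and in 32.7% of all 32851 windows of the same length. CCAAT was present in 10 (40.0%) against 33.8%, and TATAAA in 4 (16.0%) against 12.4%. Col3a1, Col5a1 and Col11a1, whose windows differ in these letters, were all higher than KO in WT and Nuc at 10 mM glucose. In Cyto they differed: Col5a1 and Col11a1 were higher than KO there and Col3a1 did not pass. A match is a description of the letters alone, and its part in expression was not tested.

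The Acly row checks the labels. It lay at 5.63 to 6.12 in KO against 10.14 to 10.28 in WT, 9.67 to 9.89 in Cyto and 8.98 to 9.24 in Nuc at 10 mM glucose. At 1 mM it lay at 5.19 to 5.43, 10.43 to 10.68, 10.41 to 10.55 and 8.87 to 9.05. The labels do not say how reads of the human construct were assigned to the mouse gene. WT replicate 2 at 1 mM stood apart, with a root mean square log2 distance of 0.536 from the mean of its group's other libraries, against 0.269 to 0.330 for the other 1 mM libraries and 0.332 to 0.531 at 10 mM. Without it, the counts of collagens higher and lower at 1 mM were again 14 and 6 (WT against KO), 2 and 18 (Cyto against WT) and 6 and 9 (Nuc against WT). All 9 fibroblast markers fixed for this check had values, among them Vim, Fn1 and Pdgfrb, with Thy1 low (mean 1.71 at 10 mM and -0.15 at 1 mM). The 6 epithelial markers listed were not analysed here.

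At 10 mM glucose, most collagen genes were higher with WT or Nuc ACLY than without ACLY, whereas Cyto was higher for some chains and lower for others. A gene is called higher or lower here when its limma Benjamini-Hochberg adjusted p over the whole table is under 0.05. WT exceeded KO for 19 of 30 collagens and fell below it for 2, when 20.6% of all genes were higher and 20.2% lower. Nuc was above KO for 24 and below for 1, with 22.7% of all genes in each direction. Cyto was above KO for 9 and below for 7, with 19.6% and 18.9% of all genes. The median log2 fold change of the 30 collagens was 0.50 for WT, 0.75 for Nuc and 0.14 for Cyto against KO, beside all-gene medians of -0.0014, -0.00026 and -0.0033. These comparisons share the KO libraries.

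Between the ACLY constructs at 10 mM, Cyto was the low group. Nuc against Cyto gave 17 of 30 higher and 0 lower (all genes 15.3% and 15.7%), and Cyto against WT gave 1 of 30 higher and 16 lower (all genes 15.9% and 15.6%). Nuc against WT gave 12 of 30 higher and 2 lower (all genes 15.0% and 13.8%). The KO group had the lowest mean for 16 of 30 collagens and Nuc the highest for 17.

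At 1 mM glucose, Cyto was lower than KO as well for most collagens. WT against KO gave 14 of 25 higher and 6 lower (all genes 29.7% and 28.5%), and Nuc against KO 11 of 25 higher and 3 lower (all genes 30.5% and 29.5%). Cyto against KO gave 5 of 25 higher and 15 lower (all genes 31.7% and 33.0%). The contrasts among constructs were 21 of 25 higher and 1 lower (all genes 20.4% and 20.5%) for Nuc against Cyto, 2 of 25 higher and 18 lower (all genes 25.7% and 27.5%) for Cyto against WT, and 6 of 25 higher and 9 lower (all genes 19.7% and 19.4%) for Nuc against WT. With quantile normalization the Nuc against KO count was 8 higher and 5 lower, and that of Nuc against WT was 7 higher and 6 lower. Cyto had the lowest mean for 19 of 25 collagens and WT the highest for 13. The median log2 fold change against KO was 0.33 for WT, -0.35 for Cyto and 0.18 for Nuc, beside -0.0021, -0.026 and -0.0061 over all genes.

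Summed on the linear scale (2 to the power of each log2 value), collagens made up 2.14 to 2.20% of a library in KO, 2.52 to 2.83% in Cyto, 3.51 to 3.64% in WT and 4.04 to 4.32% in Nuc at 10 mM glucose, and the 4 groups did not overlap. The corresponding shares at 1 mM were 2.40 to 2.71% in Cyto, 3.01 to 3.56% in KO, 3.99 to 4.58% in Nuc and 4.62 to 5.13% in WT. Here too no group overlapped another, and Cyto had moved below KO. Col1a1, Col1a2 and Col3a1 together supplied 63.4 to 76.0% of the collagen sum in every library. Col1a1 ranked between 1 and 5 among all genes of its library.

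**Figure D1:**
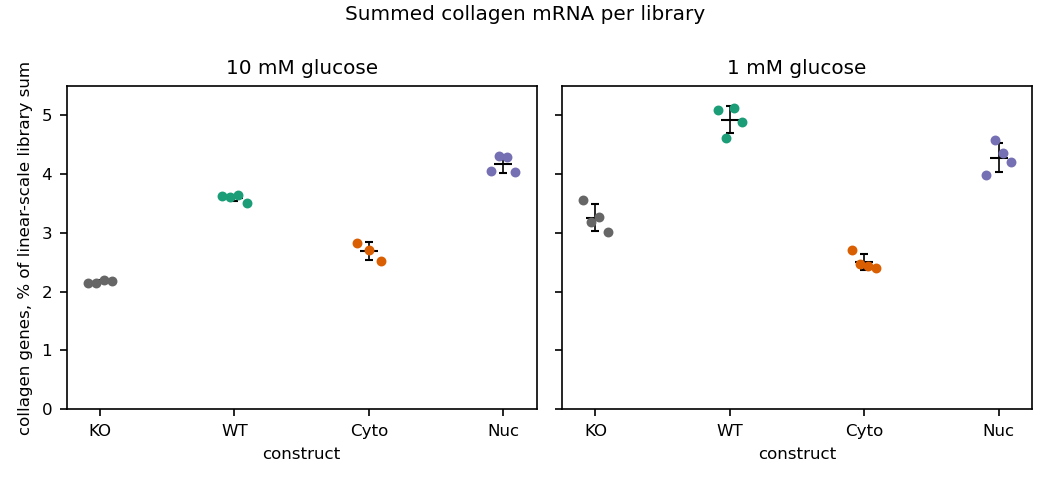
Collagen genes as a percentage of the linear-scale sum of each library (vertical axis) by construct, with 1 point per library and bars for the mean ± SD. KO is lowest at 10 mM glucose (2.14 to 2.20%) and Cyto is lowest at 1 mM (2.40 to 2.71%); the media were normalized separately and their levels are not compared.

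Marker lists of other cell types were read beside these collagen shares. For the marker counts against KO below, 20.6% of all genes were higher and 20.2% lower in WT at 10 mM. The shares of all genes were 19.6% and 18.9% in Cyto and 22.7% in each direction in Nuc. At 1 mM they were 29.7% and 28.5% in WT, 31.7% and 33.0% in Cyto and 30.5% and 29.5% in Nuc. The contractile markers Acta2, Tagln, Myl9, Actg2 and Myh11 (of 6 listed) had values at 10 mM, and against KO they were 3 higher and 1 lower in WT, 2 higher and 0 lower in Cyto and 4 higher and 0 lower in Nuc. Their summed linear-scale value was 1793 to 2107 in KO, 3046 to 3363 in WT, 1968 to 2077 in Cyto and 3172 to 3935 in Nuc. At 1 mM, where Myh11 was not analysed here, they were 3 higher and 1 lower in WT, 1 higher and 2 lower in Cyto and 4 higher and 0 lower in Nuc, and the sum was 1435 to 1499, 1702 to 2385, 1032 to 1454 and 2334 to 2659 in KO, WT, Cyto and Nuc. The sum of the 9 fibroblast markers was lowest in KO at 10 mM, at 14367 to 14957 against 19696 to 20894 in WT, 20427 to 21312 in Cyto and 20938 to 22795 in Nuc. At 1 mM it was 17774 to 20178 in KO, 21002 to 28599 in WT, 19438 to 21616 in Cyto and 24322 to 25869 in Nuc. Fn1 carried most of this sum. By gene the fibroblast markers were 4 higher and 1 lower in WT, 4 higher and 0 lower in Cyto and 3 higher and 3 lower in Nuc at 10 mM. At 1 mM the counts were 2 higher and 4 lower, 3 higher and 4 lower and 2 higher and 5 lower. The share of higher fibroblast markers at 1 mM was near or below that of all genes. The cartilage markers with values were Sox9 and Comp, of 6, with a sum of 63.2 to 69.4, 78.9 to 88.3, 45.5 to 52.8 and 77.0 to 84.9 in KO, WT, Cyto and Nuc at 10 mM and 147 to 166, 111 to 162, 135 to 158 and 113 to 142 at 1 mM. Against KO at 10 mM, 1 higher and 0 lower passed in WT, 0 higher and 1 lower in Cyto and 1 higher and 0 lower in Nuc. At 1 mM 0 higher and 1 lower passed against KO in WT, 0 higher and 1 lower in Cyto and 0 higher and 2 lower in Nuc. The part of these markers in the collagen differences was not tested. The sums of endothelial, macrophage and skeletal muscle markers stayed at or below 5.68, 9.26 and 16.2, and those of osteoblast and adipocyte markers at or below 58.8 and 40.8, in every library.

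Among the fibrillar chains, all 9 chains were higher in WT than in KO at 10 mM glucose and all 9 were higher in Nuc, with median log2 fold changes of 0.98 and 1.03. Of all genes 20.6% were higher in WT and 22.7% in Nuc. Cyto was higher for 5 and lower for 1, beside 19.6% and 18.9% of all genes. The share of lower fibrillar chains in Cyto was thus not above that of all genes. Per kilobase of the longest coding transcript, Col1a1 and Col1a2 held the top ranks among collagens in all 8 groups, and Col3a1 came next in every group but Cyto at 1 mM, where Col6a1 stood above it.

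At 10 mM, Col1a1 read 12.47, 12.49, 12.59 and 12.60 in the KO libraries, 13.52, 13.53, 13.55 and 13.48 in WT, 13.42, 13.29 and 13.14 in Cyto and 13.73, 13.89, 13.87 and 13.79 in Nuc. Each construct lay above KO with no overlap, and Nuc lay above WT. The difference from KO was 2.43-fold (log2 1.28 ± 0.062 SE, adjusted p = 1.16e-10) for Nuc, 1.97-fold (log2 0.98 ± 0.062 SE, adjusted p = 4.11e-09) for WT and 1.67-fold (log2 0.74 ± 0.066 SE, adjusted p = 2.68e-07) for Cyto. Its partner Col1a2 read 12.49, 12.53, 12.56 and 12.54 in the KO libraries, 13.43, 13.41, 13.42 and 13.39 in WT, 13.00, 12.96 and 12.88 in Cyto and 13.59, 13.67, 13.69 and 13.62 in Nuc. Col1a2 showed the same order, at 2.16-fold (log2 1.11 ± 0.045 SE, adjusted p = 1.68e-11), 1.84-fold (log2 0.88 ± 0.045 SE, adjusted p = 3.29e-10) and 1.33-fold (log2 0.42 ± 0.049 SE, adjusted p = 5.43e-06) for Nuc, WT and Cyto against KO. Cyto was lower than WT for Col1a2 (log2 -0.47 ± 0.049 SE, adjusted p = 2.32e-06). With quantile normalization the Col1a2 differences no longer passed for WT against KO (log2 0.23), Cyto against KO (0.060) or Cyto against WT (-0.17). Nuc against WT no longer passed for Col1a1 (0.056) or Col1a2 (0.21). The log2 difference between the Col1a1 and Col1a2 chains widened at 10 mM from 0.0088 ± 0.044 in KO to 0.34 ± 0.078 in Cyto (SD, n = 4 and 3). KO and Cyto libraries did not overlap in it. At 1 mM Cyto was not wider than KO: the difference was 0.42 ± 0.038 in KO, 0.31 ± 0.072 in Cyto, 0.45 ± 0.066 in Nuc and 0.65 ± 0.068 in WT (SD, n = 4 each). That difference is not corrected for length, so only its change between groups is read.

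Col3a1 separated Cyto from the other constructs. At 10 mM, Col3a1 read 10.53, 10.63, 10.72 and 10.82 in the KO libraries, 11.80, 11.74, 11.75 and 11.83 in WT, 10.75, 10.72 and 10.76 in Cyto and 11.62, 11.67, 11.74 and 11.80 in Nuc. WT and Nuc sat above KO, while Cyto overlapped KO. The fold changes were 2.15-fold (log2 1.10 ± 0.060 SE, adjusted p = 6.87e-10) for WT and 2.04-fold (log2 1.03 ± 0.060 SE, adjusted p = 1.13e-09) for Nuc, and Cyto did not pass (log2 0.066 ± 0.064 SE, adjusted p = 0.456). Cyto was 2.06-fold lower than WT (log2 -1.04 ± 0.064 SE, adjusted p = 7.55e-09). Col3a1 fell outside the naming rule at 10 mM and was singled out after its values were seen.

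The type V and XI chains followed with different shares for Cyto. At 10 mM, Col5a1 read 9.73, 9.70, 9.74 and 9.73 in the KO libraries, 10.71, 10.77, 10.77 and 10.80 in WT, 10.60, 10.54 and 10.49 in Cyto and 10.83, 10.84, 10.82 and 10.88 in Nuc. All constructs exceeded KO for Col5a1, by 2.17-fold (log2 1.12 ± 0.042 SE, adjusted p = 8.45e-12) in Nuc, 2.05-fold (log2 1.04 ± 0.042 SE, adjusted p = 2.42e-11) in WT and 1.76-fold (log2 0.82 ± 0.045 SE, adjusted p = 1.74e-09) in Cyto. For Col5a2, the chain it pairs with, the rise was 1.66-fold in Nuc, 1.65-fold in WT and 1.22-fold in Cyto (log2 0.29 ± 0.047 SE, adjusted p = 0.000137). Col11a1, of type XI, read 6.51, 6.51, 6.59 and 6.56 in the KO libraries, 8.01, 8.02, 7.94 and 7.99 in WT, 7.14, 7.17 and 7.26 in Cyto and 8.07, 8.22, 8.13 and 7.91 in Nuc. It rose 2.91-fold (log2 1.54 ± 0.061 SE, adjusted p = 1.53e-11) in Nuc, 2.73-fold (log2 1.45 ± 0.061 SE, adjusted p = 3.72e-11) in WT and 1.57-fold (log2 0.65 ± 0.066 SE, adjusted p = 1.12e-06) in Cyto, with no overlap between KO and any construct. Col5a3 differed, since Cyto was lower than KO (log2 -0.47 ± 0.069 SE, adjusted p = 5.49e-05) while WT was higher (log2 0.51 ± 0.064 SE, adjusted p = 8.36e-06). Its rise in Nuc was log2 0.20, and -0.0016 with a trend on GC content removed. The limma adjusted p of Col5a3 in Nuc against KO at 10 mM rose to 0.0593 without KO replicate 1 and 0.0569 without Nuc replicate 2.

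**Figure D2:**
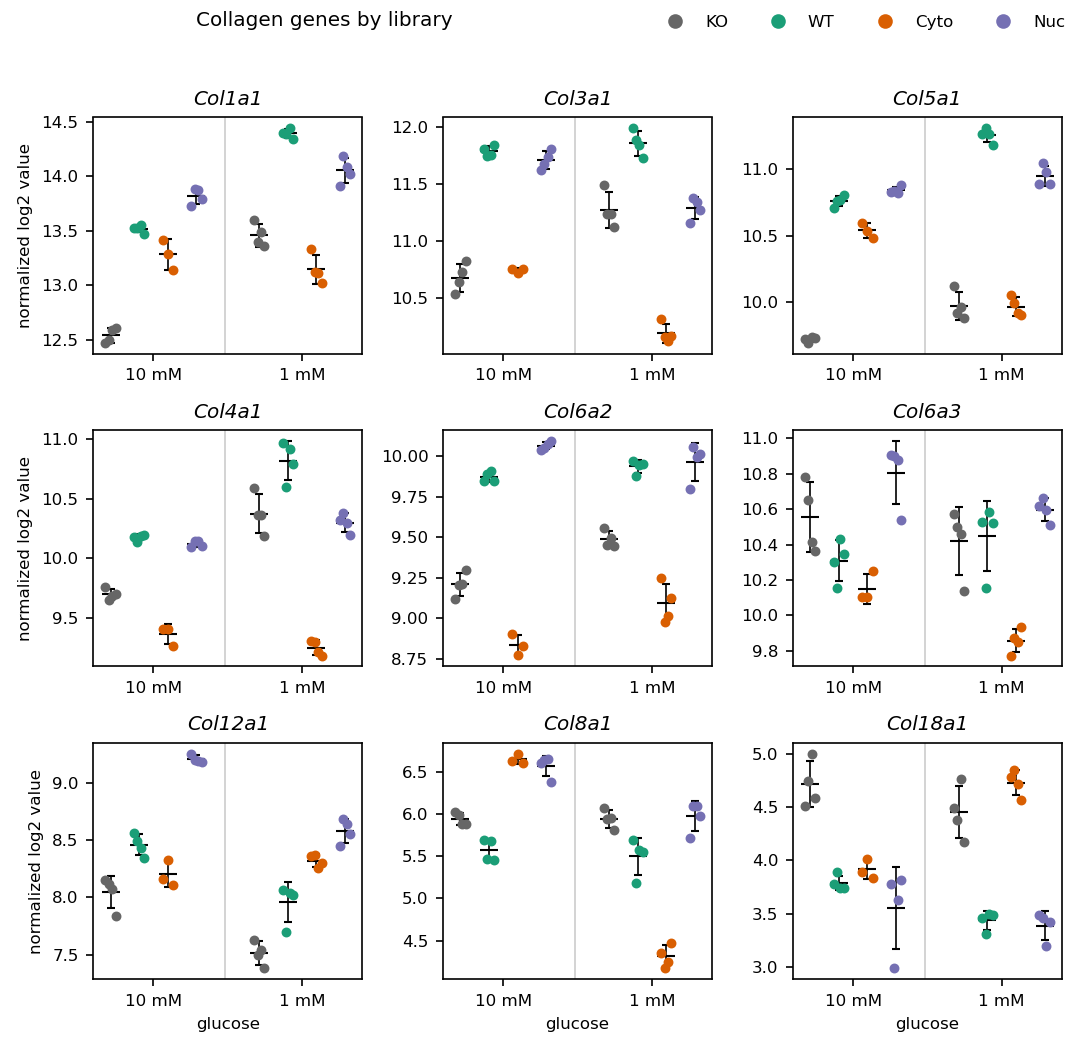
Normalized log2 values (vertical axis) of 9 collagen genes in every library, grouped by glucose and construct, with 1 point per library and bars for the mean ± SD. In the 10 mM panels of Col1a1, Col3a1, Col5a1 and Col6a2 WT and Nuc lie above KO. Cyto lies below KO at 1 mM for Col1a1, Col3a1, Col4a1, Col6a2, Col6a3 and Col8a1, and at 10 mM also for Col4a1, Col6a2 and Col6a3. Col18a1 is low in WT and Nuc in both media. Levels are comparable within a medium.

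With 1 mM glucose, 7 of the 9 fibrillar chains were higher in WT than in KO and Col27a1 was lower, whereas Cyto was lower than KO for 5 and higher for 2. Of all genes 29.7% were higher and 28.5% lower in WT, and 31.7% and 33.0% in Cyto, so the share of higher fibrillar chains in Cyto was not above that of all genes. Col1a1 read 13.60, 13.40, 13.49 and 13.36 in the KO libraries, 14.40, 14.39, 14.44 and 14.34 in WT, 13.33, 13.13, 13.11 and 13.02 in Cyto and 13.92, 14.19, 14.09 and 14.03 in Nuc. Cyto was the lowest group and overlapped no other. The differences from KO were 1.91-fold (log2 0.93 ± 0.079 SE, adjusted p = 4.38e-08) for WT and 1.51-fold (log2 0.60 ± 0.079 SE, adjusted p = 6.22e-06) for Nuc, and Cyto was 1.24-fold lower (log2 -0.31 ± 0.079 SE, adjusted p = 0.00233). Cyto was 2.38-fold lower than WT (log2 -1.25 ± 0.079 SE, adjusted p = 1.42e-09). With quantile normalization, which fixes the values that the top ranks can take, the WT rise of Col1a1 was lost and its Nuc difference from KO changed sign (log2 -0.081). The Cyto difference of Col1a1 from KO did not pass with a trend on transcript length removed (log2 -0.22).

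Col3a1 read 11.49, 11.24, 11.24 and 11.12 in the KO libraries, 11.98, 11.88, 11.84 and 11.72 in WT, 10.31, 10.15, 10.12 and 10.17 in Cyto and 11.15, 11.37, 11.34 and 11.27 in Nuc at 1 mM. Cyto was the lowest group with no overlap, 2.11-fold (log2 -1.08 ± 0.080 SE, adjusted p = 4.37e-09) below KO and 3.17-fold (log2 -1.67 ± 0.080 SE, adjusted p = 5.64e-11) below WT. WT was 1.50-fold (log2 0.59 ± 0.080 SE, adjusted p = 1.02e-05) above KO, and the KO and Nuc means were 11.27 and 11.29. Col5a1 read 10.13, 9.92, 9.96 and 9.89 in the KO libraries, 11.26, 11.31, 11.27 and 11.18 in WT, 10.06, 10.00, 9.92 and 9.90 in Cyto and 10.89, 11.04, 10.98 and 10.89 in Nuc. The Cyto and KO libraries overlapped here (log2 -0.0057 ± 0.061 SE, adjusted p = 0.940), while WT and Nuc lay above both, 2.43-fold (log2 1.28 ± 0.061 SE, adjusted p = 4.97e-11) and 1.97-fold (log2 0.98 ± 0.061 SE, adjusted p = 7.41e-10) over KO. Col5a2 stayed higher in Cyto than in KO (log2 0.28 ± 0.065 SE, adjusted p = 0.00125), so the log2 difference of Col5a1 to Col5a2 was -0.30 ± 0.083 in Cyto against -0.012 ± 0.043 in KO at 1 mM (SD, n = 4 each). At 10 mM it was 0.42 ± 0.055 in Cyto against -0.11 ± 0.054 in KO, the opposite direction.

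Col5a3 fell in Cyto (log2 -0.81 ± 0.059 SE, adjusted p = 3.69e-09) and Col11a1 rose in every construct, by log2 1.05 in WT, 0.66 in Cyto and 1.02 in Nuc. Col27a1, a fibrillar chain best known from cartilage, was lower than KO in WT (log2 -0.85 ± 0.16 SE, adjusted p = 0.000260), Cyto (log2 -1.38 ± 0.16 SE, adjusted p = 1.02e-06) and Nuc (log2 -0.78 ± 0.16 SE, adjusted p = 0.000506). Col27a1 read 4.23, 3.77, 3.69 and 3.66 in the KO libraries, 3.02, 2.68, 2.80 and 3.44 in WT, 2.68, 2.33, 2.27 and 2.54 in Cyto and 3.17, 3.06, 3.04 and 2.96 in Nuc. The KO libraries lay above all others. Col11a1 and Col27a1 were outside the naming rule at 1 mM and were added after their values were seen.

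Among the basement membrane chains, Col4a1 and Col4a2, the pair that forms the common type IV network, gave most of the signal. They lie head to head: in GRCm38.p6 Col4a1 starts at chr8 position 11312826 on the minus strand and Col4a2 at 11312805 on the plus strand, 21 bases apart. At 10 mM, Col4a1 read 9.76, 9.65, 9.69 and 9.70 in the KO libraries, 10.18, 10.14, 10.19 and 10.20 in WT, 9.41, 9.41 and 9.27 in Cyto and 10.09, 10.14, 10.15 and 10.10 in Nuc. WT and Nuc lay above KO and Cyto lay below, with no overlap. The differences from KO were 1.39-fold (log2 0.48 ± 0.046 SE, adjusted p = 5.23e-07) for WT, 1.34-fold (log2 0.42 ± 0.046 SE, adjusted p = 1.32e-06) for Nuc, and log2 -0.34 for Cyto (adjusted p = 4.93e-05). Col4a2 read 9.18, 9.21, 9.16 and 9.17 in the KO libraries, 9.79, 9.76, 9.82 and 9.69 in WT, 9.30, 9.27 and 9.19 in Cyto and 9.96, 10.02, 9.92 and 9.81 in Nuc. WT and Nuc were above KO, 1.50-fold (log2 0.59 ± 0.051 SE, adjusted p = 1.76e-07) and 1.68-fold (log2 0.75 ± 0.051 SE, adjusted p = 6.19e-09), whereas Cyto did not pass (log2 0.075 ± 0.055 SE, adjusted p = 0.304).

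At 1 mM, Col4a1 read 10.59, 10.37, 10.36 and 10.19 in the KO libraries, 10.97, 10.60, 10.92 and 10.79 in WT, 9.31, 9.30, 9.21 and 9.19 in Cyto and 10.32, 10.38, 10.30 and 10.19 in Nuc. Cyto stood far below the rest, 2.18-fold (log2 -1.12 ± 0.085 SE, adjusted p = 5.58e-09) under KO and 2.96-fold (log2 -1.57 ± 0.085 SE, adjusted p = 2.17e-10) under WT. Col4a2 moved the same way, 1.60-fold (log2 -0.68 ± 0.093 SE, adjusted p = 6.79e-06) under KO and 2.53-fold (log2 -1.34 ± 0.093 SE, adjusted p = 4.13e-09) under WT. WT was above KO for both, by log2 0.45 for Col4a1 and 0.66 for Col4a2, the first of which was lost with quantile normalization (log2 0.059). The mean log2 difference of Col4a1 to Col4a2 was smaller than in KO in every construct, WT included, and smallest in Cyto. At 10 mM it was 0.52 ± 0.053 in KO, 0.41 ± 0.063 in WT, 0.19 ± 0.080 in Nuc and 0.11 ± 0.030 in Cyto. At 1 mM the same quantity was 0.47 ± 0.026, 0.25 ± 0.038, 0.080 ± 0.034 and 0.027 ± 0.025 (SD, n = 4, or 3 for Cyto at 10 mM). KO and Cyto libraries did not overlap in it in either medium.

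Col4a5, whose chain occurs in basement membranes of kidney and other tissues, rose in every construct at 10 mM (1.67-fold in WT, 1.53-fold in Cyto and 1.46-fold in Nuc, largest adjusted p = 9.63e-07). With 1 mM, Col4a5 read 7.60, 7.36, 7.46 and 7.30 in the KO libraries, 8.39, 8.11, 8.47 and 8.33 in WT, 7.65, 7.70, 7.70 and 7.71 in Cyto and 7.49, 7.54, 7.57 and 7.45 in Nuc. WT lay above all others (log2 0.89 ± 0.074 SE, adjusted p = 3.34e-08) and Cyto was above KO (log2 0.26 ± 0.074 SE, adjusted p = 0.00563), which did not pass under quantile normalization (log2 0.16). Col4a3, Col4a4 and Col4a6 were near the floor of the 10 mM table: their group means ran from -1.11 to 1.13, and none passed a comparison with KO.

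Type VI collagen split by chain. Col6a1 and Col6a2, neighbouring genes for the shorter chains, were higher than KO in WT and Nuc in both media and lower in Cyto in both, except that with quantile normalization at 1 mM Col6a1 changed sign in WT (log2 -0.026) and did not pass in Nuc (log2 0.077). At 10 mM, Col6a2 read 9.12, 9.20, 9.21 and 9.30 in the KO libraries, 9.85, 9.89, 9.91 and 9.84 in WT, 8.90, 8.77 and 8.83 in Cyto and 10.04, 10.05, 10.08 and 10.10 in Nuc. No group overlapped another, and Nuc was highest. Col6a2 was 1.81-fold (log2 0.86 ± 0.048 SE, adjusted p = 6.72e-10) up in Nuc, 1.59-fold (log2 0.67 ± 0.048 SE, adjusted p = 1.93e-08) up in WT and 1.30-fold down in Cyto (log2 -0.37 ± 0.051 SE, adjusted p = 2.49e-05), and Nuc exceeded Cyto 2.35-fold (log2 1.23 ± 0.051 SE, adjusted p = 6.37e-11). For Col6a1 the log2 fold changes were 0.75, 0.50 and -0.27 for Nuc, WT and Cyto. At 1 mM, Col6a2 read 9.56, 9.45, 9.50 and 9.45 in the KO libraries, 9.97, 9.88, 9.95 and 9.96 in WT, 9.25, 8.98, 9.01 and 9.13 in Cyto and 9.80, 10.06, 10.00 and 10.01 in Nuc. Cyto was again lowest without overlap (log2 -0.40 ± 0.066 SE, adjusted p = 5.32e-05), and WT (log2 0.45 ± 0.066 SE, adjusted p = 2.21e-05) and Nuc (log2 0.48 ± 0.066 SE, adjusted p = 9.51e-06) were higher than KO. The WT rise did not pass with quantile normalization (log2 0.15).

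The third chain, Col6a3, which carries the long globular end of the trimer, did not follow WT. At 10 mM, Col6a3 read 10.78, 10.65, 10.41 and 10.37 in the KO libraries, 10.30, 10.16, 10.43 and 10.35 in WT, 10.10, 10.10 and 10.25 in Cyto and 10.91, 10.90, 10.88 and 10.54 in Nuc. KO overlapped both WT and Nuc, and Cyto overlapped WT. Cyto was below KO (log2 -0.40 ± 0.11 SE, adjusted p = 0.00627), and Nuc was above Cyto (log2 0.66 ± 0.11 SE, adjusted p = 0.000176) and above WT (log2 0.50 ± 0.098 SE, adjusted p = 0.00112). Nuc passed against KO (log2 0.25), but the call was lost without any 1 of 5 libraries. The limma adjusted p of Col6a3 in Nuc against KO at 10 mM rose to 0.132 without KO replicate 3, 0.137 without KO replicate 4, 0.114 without Nuc replicate 1, 0.113 without Nuc replicate 2 and 0.107 without Nuc replicate 3. The log2 difference of Col6a3 to Col6a1 was 0.55 ± 0.26 in KO and -0.20 ± 0.12 in WT at 10 mM (SD, n = 4 each). At 1 mM, Col6a3 read 10.57, 10.50, 10.46 and 10.14 in the KO libraries, 10.53, 10.15, 10.58 and 10.52 in WT, 9.77, 9.87, 9.85 and 9.93 in Cyto and 10.62, 10.66, 10.59 and 10.51 in Nuc. WT replicate 2 was the lowest of its group, and Cyto lay under all other libraries (log2 -0.56 ± 0.095 SE, adjusted p = 6.71e-05).

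FACIT chains were higher in WT and Nuc than in KO at 10 mM for all 5 members, with medians of log2 0.66 and 1.16. Of all genes 20.6% were higher in WT and 22.7% in Nuc. Col12a1 coats type I fibrils. Col12a1 read 8.15, 8.11, 8.07 and 7.84 in the KO libraries, 8.56, 8.49, 8.43 and 8.35 in WT, 8.16, 8.33 and 8.11 in Cyto and 9.25, 9.20, 9.19 and 9.18 in Nuc. Nuc stood above every other library, 2.23-fold (log2 1.16 ± 0.071 SE, adjusted p = 1.92e-09) over KO and 1.67-fold (log2 0.74 ± 0.071 SE, adjusted p = 8.62e-07) over WT. At 1 mM, Col12a1 read 7.63, 7.50, 7.54 and 7.38 in the KO libraries, 8.07, 7.70, 8.04 and 8.02 in WT, 8.36, 8.37, 8.25 and 8.30 in Cyto and 8.45, 8.68, 8.64 and 8.55 in Nuc. Here Cyto rose above KO without overlap (log2 0.80 ± 0.080 SE, adjusted p = 1.52e-07), against the direction of most collagens in Cyto, and Nuc rose 2.09-fold (log2 1.07 ± 0.080 SE, adjusted p = 6.01e-09).

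Col20a1 was higher than KO in WT and Nuc at 10 mM (log2 0.66 and 0.88) but lower in WT and Cyto at 1 mM (log2 -0.80 ± 0.20 SE, adjusted p = 0.00273 and log2 -1.57 ± 0.20 SE, adjusted p = 3.34e-06). The limma adjusted p of Col20a1 in WT against KO at 10 mM rose to 0.0505 without KO replicate 1, 0.0576 without KO replicate 4 and 0.0815 without WT replicate 2. Col20a1 read 3.08, 2.85, 3.19 and 2.90 in the KO libraries, 2.05, 2.39, 2.20 and 2.15 in WT, 2.09, 1.04, 0.97 and 1.66 in Cyto and 2.85, 2.88, 3.26 and 3.05 in Nuc at 1 mM, where KO and Nuc shared a range and WT and Cyto overlapped each other below it. Col16a1 rose in WT in both media (log2 0.48 and 0.38) and fell in Cyto at 1 mM (log2 -0.35 ± 0.074 SE, adjusted p = 0.000515). Col9a3, the type IX chain of cartilage, and Col14a1 were low. Col9a3 rose in WT at 10 mM (log2 1.49 ± 0.33 SE, adjusted p = 0.00177) and passed no comparison at 1 mM. Col14a1 rose in Nuc at 1 mM (log2 0.72 ± 0.24 SE, adjusted p = 0.0154).

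In the class of other chains none was higher in WT than in KO in either medium, beside 20.6% of all genes at 10 mM and 29.7% at 1 mM. In WT 2 of 7 were lower at 10 mM, where 20.2% of all genes were, and 4 of 5 at 1 mM, where 28.5% were. Col18a1, whose end fragment is endostatin, is a basement membrane collagen too but was sorted here with the other chains. It was lower than KO in all constructs at 10 mM. Col18a1 read 4.52, 4.75, 5.00 and 4.59 in the KO libraries, 3.78, 3.89, 3.74 and 3.74 in WT, 3.89, 4.02 and 3.84 in Cyto and 3.78, 2.99, 3.63 and 3.82 in Nuc. The fall was 1.90-fold (log2 -0.92 ± 0.16 SE, adjusted p = 0.000230) in WT, 1.74-fold (log2 -0.80 ± 0.17 SE, adjusted p = 0.00163) in Cyto and 2.23-fold (log2 -1.16 ± 0.16 SE, adjusted p = 1.92e-05) in Nuc, and no construct library reached the KO range. At 1 mM, Col18a1 read 4.49, 4.38, 4.77 and 4.18 in the KO libraries, 3.46, 3.31, 3.50 and 3.49 in WT, 4.79, 4.85, 4.72 and 4.57 in Cyto and 3.49, 3.46, 3.19 and 3.42 in Nuc. WT (log2 -1.02 ± 0.11 SE, adjusted p = 9.64e-07) and Nuc (log2 -1.07 ± 0.11 SE, adjusted p = 4.28e-07) were again low, whereas Cyto overlapped KO, was log2 0.28 above it and stood above WT (log2 1.29 ± 0.11 SE, adjusted p = 6.68e-08). The limma adjusted p of Col18a1 in Cyto against KO at 1 mM rose to 0.0571 without KO replicate 1, 0.0898 without KO replicate 2, 0.154 without KO replicate 4, 0.0830 without Cyto replicate 1, 0.107 without Cyto replicate 2 and 0.0648 without Cyto replicate 3.

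Col8a1, a short chain of the hexagonal networks under endothelium and in the eye, differed between the media. At 10 mM, Col8a1 read 6.02, 5.98, 5.88 and 5.88 in the KO libraries, 5.69, 5.46, 5.68 and 5.46 in WT, 6.62, 6.71 and 6.60 in Cyto and 6.60, 6.64, 6.65 and 6.38 in Nuc. Cyto and Nuc were above KO (log2 0.70 ± 0.085 SE, adjusted p = 7.14e-06 and log2 0.62 ± 0.079 SE, adjusted p = 6.9e-06) and WT was below it (log2 -0.37 ± 0.079 SE, adjusted p = 0.00128). At 1 mM, Col8a1 read 6.07, 5.94, 5.95 and 5.81 in the KO libraries, 5.69, 5.18, 5.57 and 5.55 in WT, 4.36, 4.17, 4.24 and 4.47 in Cyto and 5.72, 6.09, 6.10 and 5.98 in Nuc. Here Cyto was the lowest group without overlap, 3.10-fold (log2 -1.63 ± 0.11 SE, adjusted p = 1.28e-09) under KO, and Nuc stood 3.16-fold (log2 1.66 ± 0.11 SE, adjusted p = 4.34e-09) over Cyto. WT was again below KO (log2 -0.44 ± 0.11 SE, adjusted p = 0.00239), and the KO and Nuc means were 5.94 and 5.97.

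Col17a1, a transmembrane collagen of hemidesmosomes, was low throughout. Col17a1 read 2.15, 1.65, 1.67 and 1.79 in the KO libraries, -0.21, -0.39, -0.31 and -0.021 in WT, -1.43, -0.32, -1.24 and -1.06 in Cyto and -0.69, 1.08, 0.018 and -0.13 in Nuc at 1 mM. KO was the highest group without overlap, and the falls were log2 -2.05, -2.83 and -1.75 in WT, Cyto and Nuc (largest adjusted p = 0.000222). It passed no comparison at 10 mM. Col28a1 fell in Cyto at 1 mM (log2 -2.32 ± 0.33 SE, adjusted p = 1.08e-05) and in WT (log2 -1.27 ± 0.33 SE, adjusted p = 0.00368), and Nuc exceeded Cyto (log2 2.54). The WT fall did not pass with quantile normalization (log2 -0.78). Col7a1, the anchoring fibril collagen, rose in Nuc at 10 mM (log2 0.90 ± 0.17 SE, adjusted p = 0.000482). Col10a1, known from hypertrophic cartilage, rose in Nuc (log2 1.45 ± 0.26 SE, adjusted p = 0.000281), and Col26a1 passed no comparison.

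**Figure D3:**
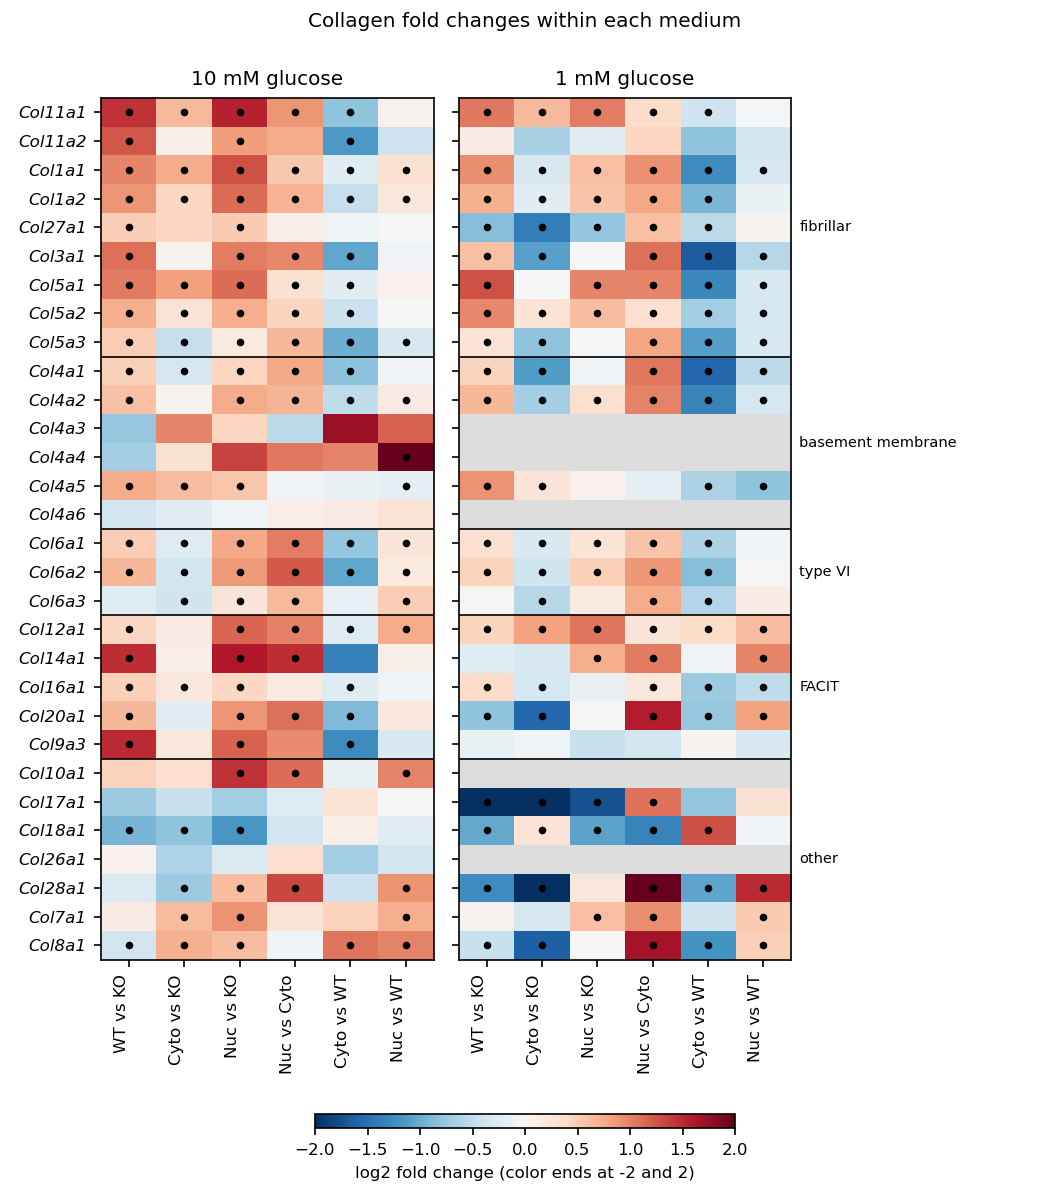
Log2 fold changes (color, ending at -2 and 2) of each collagen gene (rows, by class) in 6 comparisons (columns) within each medium, with a black dot where the limma adjusted p is under 0.05 and grey where a gene has no values. All 9 fibrillar rows are red for WT and Nuc against KO at 10 mM glucose, and the Cyto against KO column turns mostly blue at 1 mM.

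The fold changes themselves were then compared between media, over 11931 shared genes. For Cyto against KO, the 1 mM fold change minus the 10 mM fold change was 2 of 25 higher and 15 lower (all genes 21.5% and 23.2%), with a collagen median of -0.62 beside -0.029 over all genes. For Nuc against KO it was 0 of 25 higher and 15 lower (all genes 17.8% and 18.7%), and for WT against KO 2 of 25 higher and 8 lower (all genes 13.5% and 12.7%). All of these share the KO libraries. Among constructs, Cyto against WT gave 4 of 25 higher and 12 lower (all genes 14.2% and 15.5%), Nuc against Cyto 6 of 25 higher and 6 lower (all genes 9.47% and 9.48%), and Nuc against WT 0 of 25 higher and 11 lower (all genes 4.65% and 5.62%). With quantile normalization the counts were 0 higher and 5 lower for Nuc against WT, 6 higher and 7 lower for Cyto against WT, 3 higher and 6 lower for Nuc against Cyto and 1 higher and 10 lower for WT against KO. Medium and batch are the same split, so these are differences between batches as much as between glucose levels.

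Gene by gene, the difference between media for Cyto against KO was most negative for Col17a1 (log2 -2.39 ± 0.58 SE, adjusted p = 0.00128) and Col8a1 (log2 -2.33 ± 0.14 SE, adjusted p = 2.59e-13). Next came Col27a1 (log2 -1.79 ± 0.24 SE, adjusted p = 6.1e-07), Col28a1 (log2 -1.60 ± 0.41 SE, adjusted p = 0.00208) and Col20a1 (log2 -1.34 ± 0.32 SE, adjusted p = 0.00104). Col27a1 lay outside the naming rule and was added after its values were seen. Some of these were not particular to Cyto. Col20a1 also had a called negative difference for WT (log2 -1.46) and Nuc (log2 -0.88, a call lost without some single libraries). Col27a1 was higher than KO in WT and Nuc at 10 mM and lower in both at 1 mM. Col17a1 was lower than KO in every construct at 1 mM. The differences of the abundant chains were smaller but with small errors, at log2 -1.06 for Col1a1, -1.15 for Col3a1, -0.79 for Col4a1 and -0.82 for Col5a1, all passing. For Col5a1 the KO and Cyto means were both 9.97 at 1 mM, but 9.72 and 10.54 at 10 mM. Col18a1 (log2 1.07 ± 0.21 SE, adjusted p = 9.56e-05) and Col12a1 (log2 0.65 ± 0.11 SE, adjusted p = 2.85e-05) were the 2 with a called positive difference. None of the 3 type VI chains had a called difference for Cyto against KO; each was lower than KO in both media. For WT against KO, Col5a1 and Col5a2 were the 2 collagens with a called difference toward a larger fold change at 1 mM, and Col9a3 and Col20a1 were among the 8 called in the other direction. The Col5a2 difference did not pass with quantile normalization (log2 0.13) or without KO replicate 4 at 1 mM (log2 0.18), and the Col5a1 difference did not pass with the length trend removed (log2 0.35).

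**Figure D4:**
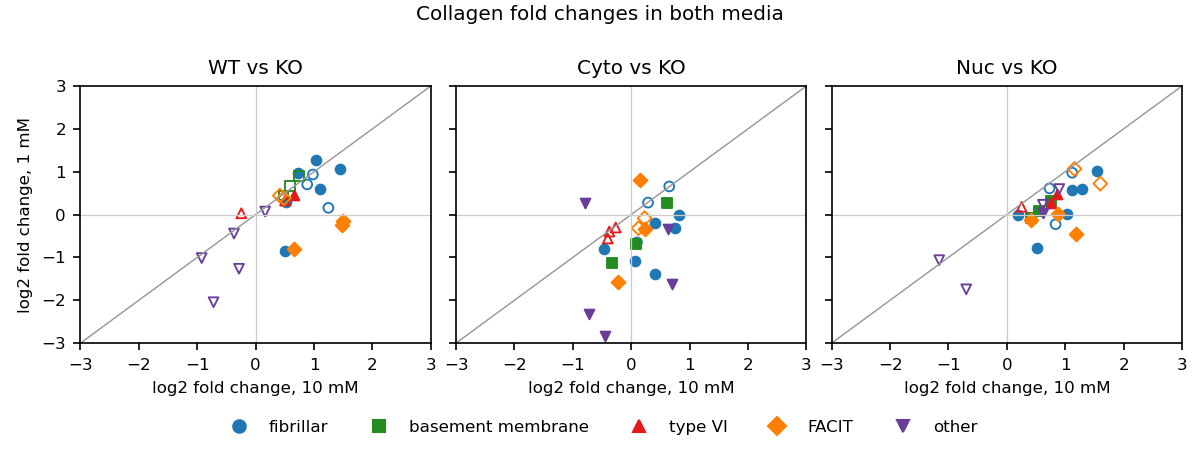
Log2 fold change against KO at 10 mM glucose (horizontal axis) and at 1 mM (vertical axis) for the 25 collagens with values in both tables, 1 point per gene, by class. The line marks equal fold changes and filled points have a called difference between media; in the Cyto panel 15 collagens with a called difference lie below the line and 2 above it.

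Genes that process collagen were read from a list of 70 sorted by role, of which 63 had values in each table. Against KO at 10 mM, the genes that passed were 42 higher and 9 lower in WT, 35 higher and 8 lower in Cyto and 44 higher and 7 lower in Nuc, with the shares of all genes given above. At 1 mM the counts were 34 higher and 16 lower, 30 higher and 24 lower and 38 higher and 15 lower. The shares of all genes there were 29.7% and 28.5%, 31.7% and 33.0% and 30.5% and 29.5%. More of the list was higher than lower in Cyto in both media, with medians of log2 0.35 and 0.13.

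Of the 10 prolyl hydroxylation genes, 7 were higher in WT and 7 in Nuc in each medium (all genes 20.6% and 22.7% at 10 mM, 29.7% and 30.5% at 1 mM). P4ha1, a catalytic subunit of prolyl 4-hydroxylase, rose in every construct at 10 mM (log2 1.06 ± 0.069 SE, adjusted p = 6.74e-09 for WT, log2 1.03 for Cyto and 1.15 for Nuc) and at 1 mM (log2 0.92, 0.65 and 0.75). All 4 lysyl hydroxylation and glycosylation genes with values were higher in WT in both media (all genes 20.6% and 29.7%). Plod2, the lysyl hydroxylase of the telopeptides, rose in Cyto at 10 mM (log2 0.48 ± 0.11 SE, adjusted p = 0.00324) and fell in Cyto at 1 mM (log2 -0.77 ± 0.078 SE, adjusted p = 1.85e-07), whereas Plod1 rose in Cyto in both (log2 1.09 and 0.85). Among 10 folding and export genes, Cyto was higher for 7 and lower for 2 at 1 mM (all genes 31.7% and 33.0%). Serpinh1, the collagen chaperone HSP47, rose there in Cyto (log2 1.20 ± 0.051 SE, adjusted p = 5.4e-12) while Col1a1 and Col3a1 fell, and Creb3l1, a transcription factor of the secretory pathway that acts on type I collagen, rose in Cyto in both media (log2 1.69 and 1.27).

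Of the 6 propeptide cleavage genes with values, 5 were higher in WT, 4 in Cyto and 5 in Nuc at 10 mM (all genes 20.6%, 19.6% and 22.7%). Adamts2, the N-proteinase, rose by log2 1.38 in WT, 1.89 in Cyto and 2.01 in Nuc at 10 mM (smallest adjusted p = 5.21e-13). Pcolce2, an enhancer of C-propeptide cleavage, was the 1 that fell, at log2 -1.54, -2.26 and -2.20. Among the 5 crosslinking genes, Loxl2 rose in every construct at 10 mM (log2 1.65, 2.54 and 3.01) and at 1 mM (log2 1.75, 1.55 and 2.46), while Loxl1 fell in all at 1 mM (log2 -0.41, -0.65 and -0.89). The 6 proteoglycans of the fibril surface were 4 higher and 0 lower in Cyto at 10 mM (all genes 19.6% and 18.9%) and 1 higher and 5 lower at 1 mM (all genes 31.7% and 33.0%). Fmod (fibromodulin) rose in Nuc by log2 3.57 at 10 mM and 2.25 at 1 mM, and in Cyto it rose at 10 mM (log2 0.66 ± 0.11 SE, adjusted p = 0.000189) but fell at 1 mM (log2 -1.11 ± 0.11 SE, adjusted p = 9.33e-08). Dcn (decorin) rose in Cyto and Nuc at 10 mM (log2 1.81 and 1.66) and fell in WT and Cyto at 1 mM (log2 -1.97 and -0.87).

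Mmp2, a gelatinase, rose in WT and Nuc in both media (log2 1.67 and 1.84 at 10 mM, 1.58 and 0.81 at 1 mM) and fell in Cyto at 1 mM (log2 -0.33 ± 0.062 SE, adjusted p = 0.000196). Of the 6 receptor genes with values, Itga11, a subunit of a fibroblast collagen integrin, rose in every construct, by log2 1.70 in WT, 1.83 in Cyto and 2.83 in Nuc at 10 mM and by 1.94, 2.87 and 2.61 at 1 mM. The 11 genes of the transforming growth factor beta pathway were 5 higher and 3 lower in WT, 4 higher and 1 lower in Cyto and 7 higher and 2 lower in Nuc at 10 mM. The shares of all genes were 20.6% and 20.2%, 19.6% and 18.9% and 22.7% in each direction. At 1 mM the pathway gave 4 higher and 3 lower, 4 higher and 4 lower and 5 higher and 3 lower. All genes gave 29.7% and 28.5%, 31.7% and 33.0% and 30.5% and 29.5%, so the WT and Cyto counts at 1 mM were near those shares. Tgfb1, the ligand, rose in WT and Nuc in both media (log2 0.81 and 1.11, then 1.10 and 0.93).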

How the data were processed

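RNA-seq of 31 of the 32 labelled libraries was read from the deposited log2 values, in a table for each medium. The authors' log2 values were made with kallisto, edgeR and limma on GRCm39, per the submitters' processing notes, with no versions. They are on a log2 counts-per-million-like scale, since 2 to the power of the values sums to 0.933 to 1.10 times 1000000 per library, and counts and depth are unknown. No source used here gives the authors' filter on low genes. 1 row without a symbol was left out of each table, and 0 columns of values were left unused.

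Each table got a limma 3.58.1 group-means model, run in R 4.3.3 (with data.table, version 1.17.8, Python 3.11.15 and pandas 2.3.3), with a mean-dependent prior variance, 6 comparisons and Benjamini-Hochberg adjustment over all genes of the table. Differences between media came from 1 fit of the 11931 shared genes. On simulated data with 200 seeded genes, the fit of Nuc against Cyto recovered 38.8, 82.1 and 97.0% of log2 changes of 0.5, 1 and 2 among 12791 genes at 10 mM, and 70.1, 86.6 and 95.5% among 12053 at 1 mM. Far more genes passed in the data, 15.3% higher and 15.7% lower at 10 mM and 20.4% and 20.5% at 1 mM. The adjustment therefore acts differently there, and these rates do not measure recovery in the data. Transcript length and GC content came from the longest coding transcript of GENCODE vM21 and promoter windows from RefSeq. Fold changes are named for members with a mean log2 value of at least 0, up to 6 per class by the number of comparisons passed, and for up to 3 pathway genes per role. 1 gene so named is not reported here. The members and lists were chosen with earlier results of these data known. The correlation of same-numbered replicates across groups was not over 0.1 in every pair (median r 0.052 at 10 mM and 0.0014 at 1 mM), so the fits have no block. Alternatives were other scalings, an added 1 on the linear scale, a low-value filter, length or GC trends removed, a constant prior variance, the replicate block, the compared groups alone, no 10 mM libraries numbered 4, and each library left out. The GC trend was added after seeing the data.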

Additional observations from a re-analysis of the deposited data

Results flagged for a closer look

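Dixon's test for 1 library far from the other 3 was applied to 160 groups of 4 libraries over the named members, and chance flags about 1 group in 20. It picked 8 values. At 10 mM glucose they were Col6a3 in Nuc replicate 4 (log2 value 10.54), Col10a1 in Nuc replicate 1 (1.78) and Col7a1 in KO replicate 1 (3.88). At 1 mM they were Col5a2 in Cyto replicate 2 (10.36), Col4a5 in Cyto replicate 1 (7.65), Col9a3 in Cyto replicate 3 (0.91), and both Col6a3 (10.15) and Col12a1 (7.70) in WT replicate 2, the library that stood apart over all genes.

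A second set of values was picked because the fold change itself differed between media, with limma adjusted p under 0.05 for the difference. Each is the log2 fold change at 1 mM minus that at 10 mM, and medium and batch cannot be told apart in any of them. For Cyto against KO the differences were -2.39 for Col17a1, -2.33 for Col8a1, -1.79 for Col27a1, -1.60 for Col28a1, -1.34 for Col20a1, -1.15 for Col3a1, -1.06 for Col1a1, -0.82 for Col5a1 and -0.79 for Col4a1, against 1.07 for Col18a1 and 0.65 for Col12a1. For WT against KO they were -1.64 for Col9a3, -1.46 for Col20a1, 0.24 for Col5a1 and 0.23 for Col5a2; the Col5a2 value lost its call with quantile normalization (0.13) and without KO replicate 4 at 1 mM (0.18). For Nuc against KO they were -1.63 for Col9a3, -0.88 for Col20a1, -0.68 for Col1a1 and -0.59 for Col8a1.

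Among the constructs, Nuc against Cyto gave 1.74 for Col8a1, -1.31 for Col9a3, 1.21 for Col28a1 and -0.98 for Col18a1. Cyto against WT gave -2.26 for Col8a1, 1.32 for Col9a3, 1.17 for Col18a1 and -1.07 for Col5a1. Nuc against WT gave -0.64 for Col1a1, -0.62 for Col4a5, -0.52 for Col8a1 and -0.51 for Col4a2. Values of low genes lost their call when 1 library was left out. For Nuc against Cyto, Col9a3 did so without any of Cyto 1 and Nuc 1, 2 and 3 at 10 mM or any of Cyto 1, 2 and 4 and Nuc 1, 2 and 4 at 1 mM (limma adjusted p 0.0596 to 0.155), and Col28a1 without any of Cyto 1 and 2 and Nuc 2 and 4 at 10 mM or any of Cyto 2, 3 and 4 and Nuc 1, 2 and 3 at 1 mM (limma adjusted p 0.0503 to 0.0928). For Cyto against WT, Col9a3 did so without any of WT 1 and Cyto 1 at 10 mM or any of WT 3 and Cyto 2 at 1 mM (limma adjusted p 0.0518 to 0.115), and for Nuc against KO, Col20a1 without any of KO 4 and Nuc 2 at 10 mM or KO 3 at 1 mM (limma adjusted p 0.0510 to 0.0576).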

How the results depend on the processing

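The totals of collagens that passed, higher and lower together, stayed within 1.5 times of those reported under each alternative with 1 exception: the difference between media for Nuc against WT fell from 11 to 5 with quantile normalization, and the cause was not tested. Within totals that held, quantile normalization moved the split of higher and lower calls as given beside those counts, and it moved 17 of 40 collagen shares and chain differences by more than 1 SD of their group. Listing first the constructs against KO (WT, then Cyto, then Nuc) and then Nuc against Cyto, Cyto against WT and Nuc against WT, leaving out each library in turn gave 19 to 22, 13 to 17, 22 to 25, 16 to 17, 13 to 17 and 12 to 15 at 10 mM glucose, 20 to 20, 18 to 20, 13 to 15, 19 to 22, 20 to 21 and 14 to 15 at 1 mM, and 8 to 11, 17 to 18, 13 to 16, 8 to 12, 14 to 17 and 11 to 12 for the differences between media. Across groups, r between same-numbered replicates ran from -0.026 to 0.36 at 10 mM (median 0.052, against -0.012 for other numbers, which ran from -0.23 to 0.13) and from -0.18 to 0.14 at 1 mM, so not every pair was over 0.1 and the labels alone do not pair the libraries. With the replicate block the counts in the same order were 22, 18, 25, 19, 19 and 14 at 10 mM, 20, 19, 14, 22, 21 and 15 at 1 mM and 9, 17, 15, 12, 16 and 11 between media. Of 399 gene results, 329 kept their direction and side of the threshold in every alternative run, 37 no longer passed with quantile normalization and 32 no longer passed without at least 1 library. Signs changed with quantile normalization for Col1a1 Nuc against KO at 1 mM (-0.081), Col6a1 WT against KO at 1 mM (-0.026) and, among values that had not passed, Col3a1 (-0.048) and Col4a2 (-0.040) Cyto against KO at 10 mM and Col5a1 Cyto against KO at 1 mM (0.064). The last also changed with the length trend (0.11) or the GC trend (0.13) removed and ran from -0.036 to 0.045 with libraries left out. Removing the GC trend gave -0.095 for Col4a2 Cyto against KO and -0.0016 for Col5a3 Nuc against KO at 10 mM. The collagens are richer in GC than the median gene (56.2% against 49.9%) and longer (6.08 against 3.22 kb), and no scaling moved the median fold change of all genes by more than 0.052. Depth is unknown, so the counting error of low members such as Col9a3 and Col17a1 could not be estimated on its own. It is part of the spread between their libraries.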

Other observations

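Some genes of the collagen pathway were higher in Cyto at 1 mM glucose, where the main chains were lower. Log2 fold changes below are for WT, Cyto and Nuc against KO unless stated, and all passed with limma adjusted p under 0.05. At 10 mM glucose, Sparc, a collagen-binding matricellular protein, rose by 0.92, 0.54 and 1.27, and Mmp14, a membrane-bound collagenase, by 1.15 in WT, 1.10 in Cyto and 1.31 in Nuc. At 1 mM, P3h1, a prolyl 3-hydroxylase, rose by 0.80, 1.15 and 0.91, and Sec24d, a coat protein of the vesicles that export procollagen, by 0.18, 1.34 and 0.69, where the WT rise did not pass with quantile normalization (log2 0.079). Both were higher in Cyto, where Col1a1, Col3a1 and Col4a1 were lower than in KO. The small proteoglycan Aspn gave -0.79, -2.16 and -2.07 and the collagen-degrading protease Ctsk -1.19, 0.60 and 0.73.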
